A study of Mus musculus with 6 samples.

Results

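Rbpj, the gene of the DNA-binding factor through which Notch receptors act on genes, and 8 genes of nuclear proteins that work with it were followed in sorted kidney endothelial cells (ECs). They were Maml1, Maml2, Maml3, Snw1 and Ep300 on the activating side and Spen, L3mbtl3 and Kdm5a on the repressing side. The members were chosen by name, as the genes of the count table that carry one of these names. The rule uses no measured value, although the names were picked with earlier results of these data known. They were 9 of 55401 listed genes, and all 9 passed the filter on low counts that left 18438 genes for testing.

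The study compared male mice that lose Rbpj in ECs with littermates that keep it, 3 mice in each group and 1 RNA-seq library per mouse. The group RbpjΔEC (RbpjDEC in the labels) had the genotype Cre +/-; Rbpjf/f, and the group CTRL was Cre -/-; Rbpjf/f, so both groups carried the floxed Rbpj allele and only RbpjΔEC carried the recombinase, CreERT2 under the endothelial Cdh5(PAC) promoter. All mice, CTRL included, received 1.5 mg of tamoxifen intraperitoneally 5 times at 8 weeks of age, kidneys were taken 12 weeks after induction, and the labels give an age of 21 weeks. CD31+CD45- cells were enriched on magnetic columns and sorted by flow cytometry. Because only one group carried Cre, an effect of the recombinase itself and of the deletion cannot be told apart, and the Cdh5 promoter is also active in lymphatic ECs.

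In the resting state RBPJ sits on DNA together with corepressors and keeps Notch target genes low. When a Notch receptor is cleaved, its intracellular domain enters the nucleus, binds RBPJ and, together with a Mastermind-like protein, forms a complex that recruits histone acetyltransferases such as p300 and switches the targets on. In blood vessels this pathway is known for arterial identity and for the choice between tip and stalk cells during sprouting, and the balance of coactivators and corepressors sets what RBPJ does at a given site.

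The 6 libraries held between 39649171 and 47726850 counts on genes, so that 3 counts, taken as the floor, were 0.0634 to 0.0749 CPM (counts scaled to library size, here with TMM factors). CTRL 1 listed counts on 33764 genes against 25629 to 26785 in the others, and the differences without it are given where they matter. All 12 endothelial markers were tested, and their summed level was 24566 to 26925 CPM in CTRL and 22539 to 22746 CPM in RbpjΔEC, without overlap. Of the 12, 9 had log2 fold changes below 0 and 3 above, with a median of -0.18. In edgeR's test 0 passed an adjusted p of 0.05, against 1.13% of all tested genes. The groups did not overlap for 5 of the 12, all lower in RbpjΔEC, against 11.6% of all tested genes that were lower without overlap. Several lists of markers of other cell types also differed in sum. The summed mural markers were 241.6 to 318.2 CPM in CTRL and 193.6 to 221.0 CPM in RbpjΔEC, with all 9 tested of 10 lower and 3 of them past an adjusted p of 0.05 in edgeR's test. Most of this sum was Mcam, which overlapped between the groups (log2 fold change -0.19), while the median log2 fold change of the 9 was -1.08. The 6 stroma markers summed to 4.63 to 7.08 CPM against 1.54 to 2.92 CPM, the 4 red cell markers to 5.39 to 5.79 against 0.644 to 4.24, and the 5 podocyte markers to 3184 to 3564 against 2591 to 2859 (including Podxl, which ECs also express), all lower in RbpjΔEC. The 7 macrophage markers summed to 15.3 to 18.6 CPM in CTRL and 24.1 to 29.4 CPM in RbpjΔEC, but the list did not move as a whole. Of its 5 tested genes, Cd68 alone was higher (log2 fold change 1.27, adjusted p = 0.0154 in edgeR's test), while Csf1r, Ptprc, Lyz2 and C1qa had log2 fold changes from -1.57 to -0.21 with none past the adjusted threshold, and the median was -1.25. The 10 tubule markers (303.4 to 432.8 against 129.0 to 466.9 CPM) and 4 lymphatic markers (607.8 to 692.6 against 635.5 to 669.5 CPM) overlapped between the groups in sum. Within the tubule list, Umod, Slc12a1, Aqp2 and Calb1 were lower in every RbpjΔEC library (log2 fold changes -2.77 to -1.19), while Lrp2, Cubn, Slc34a1, Kap and Miox had values from 0.98 to 1.28 and were highest in RbpjΔEC 3, and none passed the adjusted threshold in edgeR's test. The lymphatic sum was mostly Flt4 (log2 fold change 0.01), while Lyve1, at or below 1.42 CPM, had a log2 fold change of -1.19 without overlap (adjusted p = 0.162 in edgeR's test). The 4 B cell markers stayed at or below 0.823 CPM in sum and the 4 T cell markers at or below 0.0845 CPM, with Cd3d and Cd3e at 0 in every library. The part of any of these in the values below was not tested. In such bulk samples, fewer cells of a type and less RNA per cell cannot be told apart.

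Neither Rbpj nor any of its 8 cofactors differed between the genotypes beyond the threshold. In edgeR's quasi-likelihood test, with p adjusted by Benjamini-Hochberg over all tested genes, 0 of the 9 passed an adjusted p of 0.05. Of all tested genes 1.13% passed, 0.575% upwards and 0.559% downwards (106 and 103 genes, or 159 and 82 when scaled to library size alone). DESeq2, which called 5.12% of all tested genes, and limma-voom, which called 1.32%, also called 0 of the 9. At an unadjusted p under 0.05, 1 member passed (Kdm5a, higher in RbpjΔEC), against 17.5% of all tested genes in either direction and 8.88% upwards. The groups did not overlap for 2 members, Maml1 and Kdm5a, both with every RbpjΔEC library above every CTRL library, against 23.0% of all tested genes. The median absolute log2 fold change was 0.06 over the members and 0.18 over all tested genes. The members lay between percentiles 65.7 (L3mbtl3) and 98.8 (Spen) of mean CPM among the tested genes, which this comparison does not take into account. With all 6 libraries, the log2 fold changes of the members ran from -0.13 (Snw1) to 0.22 (L3mbtl3), and their 95% intervals together covered -0.30 to 0.47. The intervals of the members reached 0.14 to 0.25 to either side on the log2 scale, narrower than the median of 0.38 over all tested genes.

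**Figure D1:**
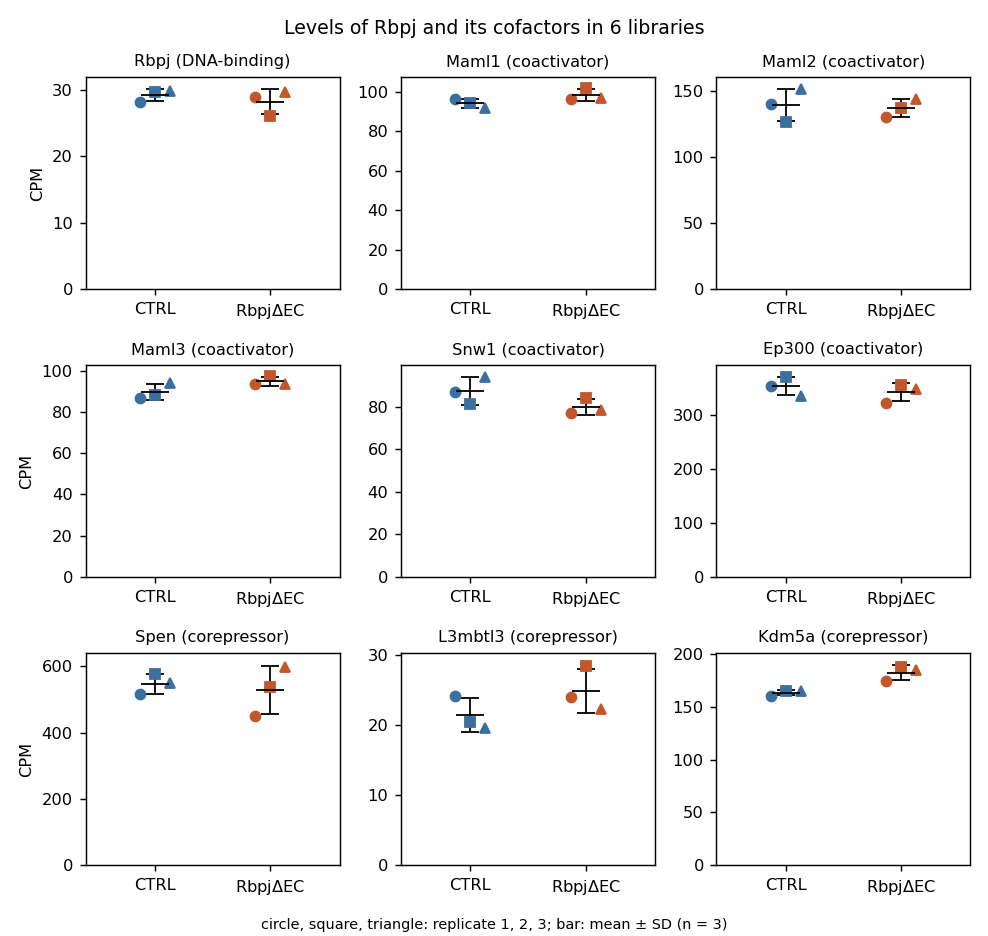
Level of each member in CPM (vertical axes, each starting at 0) in the 3 CTRL (blue) and 3 RbpjΔEC (orange) libraries, with the mean and SD of each group as bars. Only Maml1 and Kdm5a have all 3 RbpjΔEC libraries above all 3 CTRL libraries, and Rbpj lies between 26.1 and 29.8 CPM throughout.

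Rbpj (ENSMUSG00000039191.12), the targeted gene, lies at chr5:53466152-53657362 on the + strand of GRCm38. Its level was 28.1, 29.7 and 29.8 CPM in CTRL 1 to 3 and 28.9, 26.1 and 29.6 CPM in RbpjΔEC 1 to 3. The lowest library was RbpjΔEC 2, the other RbpjΔEC libraries lay within the CTRL range, and the groups overlapped. The means were 29.2 ± 0.964 CPM (SD, n = 3) and 28.2 ± 1.86 CPM (SD, n = 3), a change of -3.54% with a 95% interval from -15.4% to 9.96% (log2 fold change -0.05, standard error 0.0867, adjusted p = 0.793 in edgeR's test). Without RbpjΔEC 2 the log2 fold change was 0.0013, and without CTRL 1 it was -0.08.

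This value is the count over the whole gene, and it cannot show the floxed part alone. The exons between the loxP sites are not given in the sources used here. The Rbpj annotation (GENCODE M21) holds 12 transcripts and 12750 exonic bases. The principal transcript used here has 11 exons and 5440 bases, and its 9 internal exons measure 39 to 175 bases each. All 9 internal exons together hold 1128 bases, which is 8.8% of the exonic length of the gene and 20.7% of the principal transcript. The last exon alone holds 4058 bases, or 31.8% and 74.6%, and the longest pair of neighbouring internal exons holds 341 bases, or 2.67% and 6.27%. The whole-gene count neither checks nor contradicts the genotype labels. In these counts the group of each library rests on its label. The study itself reports recombination at the Rbpj locus and lower Hey1 in RbpjΔEC mice, and lower Hey1 and Jag1 in the sorted ECs.

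Part of the Rbpj coding sequence also occurs elsewhere in the genome. Rbpj-ps3, a processed pseudogene at chr6:46529354-46530794 on the - strand of GRCm38, was identical to the Rbpj transcript at 1437 of 1441 aligned bases (99.72%) and covered 98.6% of the 1461 coding bases. Rbpj-ps1, at chr4:49350522-49351527, was 90.78% identical over 857 aligned bases. The pair of lines below shows the 60 bases of the coding sequence (positions 913 to 972, counted from 1 at the start codon) with most mismatches to Rbpj-ps3. They are given to show how alike the copies are where they differ most. Capitals mark the bases that differ.
Rbpj 913 to 972: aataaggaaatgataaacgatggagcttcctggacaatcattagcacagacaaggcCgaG
Rbpj-ps3: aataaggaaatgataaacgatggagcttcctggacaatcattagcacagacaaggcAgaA

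Of the 1424 stretches of 38 bases in the coding sequence, 1287 (90.4%) occur unchanged in Rbpj-ps3, and between the second and the last but one exon the share was 89.3%. Outside the coding sequence it was 0 of 3979. With Rbpj-ps1, the transcript shared 36 stretches (0.7%). The reads were sequenced in pairs of 38 bases, so a mate outside the shared part can separate the copies, which these stretches do not take into account. Whether the authors counted reads with several matches is not given in the sources used here. Rbpj-ps3 had 19, 24 and 19 counts in the CTRL libraries against 15, 13 and 13 in the RbpjΔEC libraries. They were few beside the 1094 to 1408 counts on Rbpj itself, and every RbpjΔEC library lay below every CTRL library. Its log2 fold change was -0.56 (95% interval -1.56 to 0.44, adjusted p = 0.563 in edgeR's test). Rbpj-ps1 had 2 counts in CTRL 3 and 0 in the other libraries. Rbpjl, the paralog of Rbpj, had 6, 0 and 0 counts in CTRL and 1, 2 and 0 in RbpjΔEC and was too low to be tested. Both annotated genes that lie antisense within Rbpj introns, Gm10441 and Gm40304, were at or near 0, with 0 counts and 1 count over all 6 libraries.

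The Mastermind-like genes encode the adaptors that clamp the Notch intracellular domain onto RBPJ and bring in the acetyltransferases. Maml1 (chr11:50255634-50292311, - strand) was at 96.3, 94.2 and 92.0 CPM in CTRL 1 to 3 and at 96.4, 101.9 and 96.8 CPM in RbpjΔEC 1 to 3. All 3 RbpjΔEC libraries were above all CTRL libraries, although the closest ones differed by less than 1 SD. The means were 94.2 ± 2.12 and 98.4 ± 3.06 CPM (SD, n = 3 each), a log2 fold change of 0.06 with a 95% interval from -0.08 to 0.21 (adjusted p = 0.661 in edgeR's test). It was 0.037 without RbpjΔEC 2 and 0.11 with library size alone. An exact permutation test on the 3 against 3 levels gave p = 0.1, two-sided, which is the smallest p this design allows.

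Maml2 (chr9:13297957-13709388, + strand) was at 139.9, 126.4 and 150.9 CPM in CTRL and 130.1, 136.7 and 143.8 CPM in RbpjΔEC. The CTRL libraries were both the lowest and the highest, and the RbpjΔEC range lay inside that of CTRL. Its log2 fold change was -0.02 with a 95% interval from -0.19 to 0.15 (adjusted p = 0.909 in edgeR's test), and 0.02 when counts were scaled to library size alone. Relative to the median of all genes it was -0.03 under both scalings. Maml3 (chr3:51685907-52105076, - strand) was at 86.8, 88.1 and 94.1 CPM in CTRL and 93.6, 97.2 and 93.6 CPM in RbpjΔEC. CTRL 3 lay among the RbpjΔEC libraries and the groups overlapped, with a log2 fold change of 0.08 and a 95% interval from -0.07 to 0.23 (adjusted p = 0.573 in edgeR's test). This fold change was 0.053 without CTRL 1 and 0.12 with library size alone. The makeup of the family was also compared. In CPM per kilobase of exon, Maml2 made up 45.1 ± 2.11% of the summed family level in CTRL and 43.6 ± 1.39% in RbpjΔEC (SD, n = 3 each), Maml1 36.6 ± 2.00% and 37.4 ± 0.960%, and Maml3 18.3 ± 0.617% and 19.0 ± 0.450%. Each of these shares overlapped between the groups.

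Snw1 encodes SKIP, a splicing factor that also binds RBPJ and the Notch intracellular domain. At chr12:87449075-87472274 on the - strand, it was at 87.1, 81.2 and 93.9 CPM in CTRL and 77.0, 83.9 and 78.6 CPM in RbpjΔEC. RbpjΔEC 1 and 3 were below every CTRL library, while RbpjΔEC 2 was above CTRL 2. The means were 87.4 ± 6.38 and 79.8 ± 3.59 CPM (SD, n = 3 each), a log2 fold change of -0.13 with a 95% interval from -0.30 to 0.03 (adjusted p = 0.399 in edgeR's test), and of -0.078 without CTRL 3. Of the 6586 exonic bases of Snw1, 2914 (44.25%) are overlapped by exons of Slirp on the opposite strand. The library kit keeps the strand, but the strand setting of the counting is not given in the sources used here, so reads of the 2 genes may not be separated. Slirp, which encodes a mitochondrial RNA-binding protein, had 189, 210 and 231 counts in CTRL and 186, 176 and 149 in RbpjΔEC. Its RbpjΔEC libraries were all below its CTRL libraries, with a log2 fold change of -0.28 (adjusted p = 0.466 in edgeR's test).

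Ep300 encodes p300, the acetyltransferase that the Mastermind-like proteins recruit. At chr15:81585351-81652077 on the + strand, it was at 354.8, 371.2 and 336.0 CPM in CTRL and 323.0, 355.0 and 349.2 CPM in RbpjΔEC. RbpjΔEC 1 was the lowest library and the others lay inside the CTRL range. The log2 fold change was -0.05 with a 95% interval from -0.20 to 0.11 (adjusted p = 0.767 in edgeR's test). It was -0.0057 with library size alone, -0.0080 without RbpjΔEC 1, -0.019 without CTRL 2, -0.074 without RbpjΔEC 2 and -0.086 without CTRL 3. The summed level of the 5 coactivators was 761.1 to 767.0 CPM in CTRL and 720.2 to 774.6 CPM in RbpjΔEC, with 1 RbpjΔEC library below the CTRL range, 1 above it and 1 within it.

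On the repressing side, Spen encodes a large scaffold protein (SHARP in humans) that joins RBPJ to histone deacetylase complexes. At chr4:141467890-141538597 on the - strand, it was at 516.5, 575.4 and 548.5 CPM in CTRL and 451.0, 536.4 and 597.4 CPM in RbpjΔEC. The lowest and the highest of the 6 libraries were both RbpjΔEC, and the coefficient of variation was 5.39% in CTRL and 13.9% in RbpjΔEC. The log2 fold change was -0.05 with a 95% interval from -0.26 to 0.16 (adjusted p = 0.828 in edgeR's test), and it was 0.052 without RbpjΔEC 1.

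L3mbtl3 encodes a chromatin reader that binds RBPJ and brings a histone demethylase to its sites. At chr10:26274468-26375971 on the - strand, it was at 24.2, 20.5 and 19.7 CPM in CTRL and 24.1, 28.4 and 22.3 CPM in RbpjΔEC. CTRL 1 lay above RbpjΔEC 1 and 3, and the other CTRL libraries lay below all RbpjΔEC libraries. The means were 21.5 ± 2.43 and 24.95 ± 3.13 CPM (SD, n = 3 each), a log2 fold change of 0.22 (95% interval -0.04 to 0.47, adjusted p = 0.359 in edgeR's test). With 1 library left out it ran from 0.11 (without RbpjΔEC 2) to 0.31 (without CTRL 1, the library that listed the most genes).

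Kdm5a encodes a demethylase of histone H3 lysine 4 that was described as a partner of RBPJ in repression. At chr6:120364124-120444574 on the + strand, it was at 160.7, 164.8 and 165.5 CPM in CTRL and 174.5, 188.5 and 185.4 CPM in RbpjΔEC. The CTRL libraries lay close together and every RbpjΔEC library was above them (p = 0.1 in a two-sided exact permutation test, the smallest possible). The means were 163.7 ± 2.63 and 182.8 ± 7.37 CPM (SD, n = 3 each), which is 11.7% with a 95% interval from 1.30% to 23.1%. Its log2 fold change of 0.16 had an unadjusted p of 0.0296 and an adjusted p of 0.230 in edgeR's test, so the difference did not pass across all genes. Without CTRL 1 the log2 fold change was 0.14, and the unadjusted p of edgeR's test was 0.0922. Ccdc77, which overlaps 1.77% of the Kdm5a exonic length on the opposite strand, had a log2 fold change of 0.23 (adjusted p = 0.423 in edgeR's test). The summed level of the 3 corepressors was 701.4 to 760.7 CPM in CTRL and 649.5 to 805.2 CPM in RbpjΔEC, a range that enclosed that of CTRL.

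**Figure D2:**
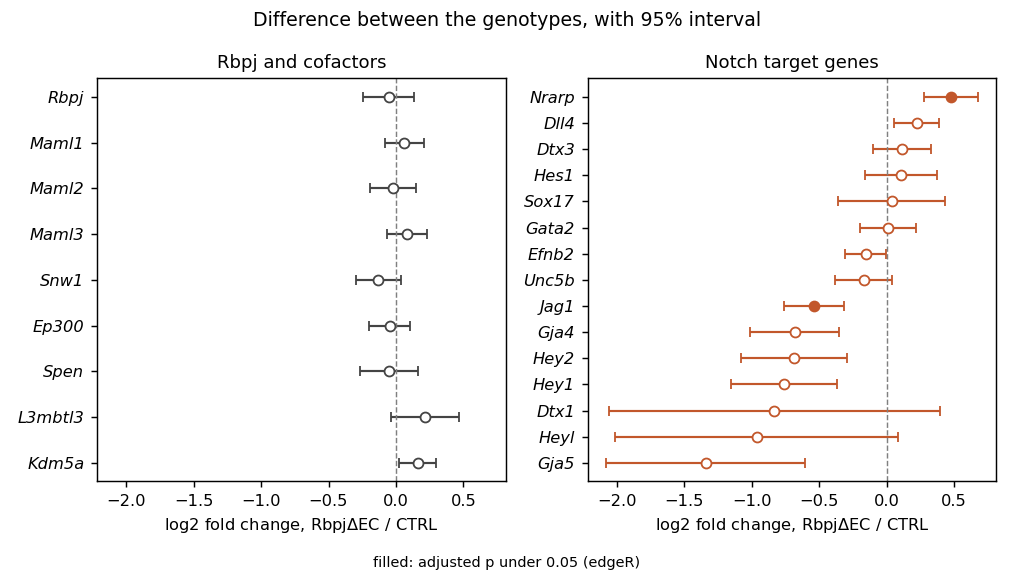
Log2 fold change of RbpjΔEC against CTRL (horizontal axis) with its 95% interval for the 9 members (left) and the 15 tested Notch target genes (right), filled where the adjusted p of edgeR's test was under 0.05. The members lie between -0.13 and 0.22 and none is filled, while the targets run from -1.34 to 0.47 with Nrarp and Jag1 filled.

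For comparison between genes, levels were divided by the exonic length of each gene and averaged over the 6 libraries. On this scale, in CPM per kilobase, the order was Spen (38.2 ± 3.63, SD, n = 6), Ep300 (24.4 ± 1.17), Maml2 (20.9 ± 1.36), Maml1 (17.4 ± 0.594), Snw1 (12.7 ± 0.943), Kdm5a (12.2 ± 0.818), Maml3 (8.80 ± 0.377), L3mbtl3 (2.39 ± 0.324) and Rbpj (2.25 ± 0.113). Rbpj and L3mbtl3 were the lowest of the 9, and the level of Rbpj per kilobase was exceeded 16.9-fold by Spen and 10.8-fold by Ep300 (8.28-fold and 6.90-fold with the other length given next). The ranges of the 6 libraries overlapped between Ep300 and Maml2, between Snw1 and Kdm5a, and between L3mbtl3 and Rbpj. Within every library Ep300 was above Maml2. The order of Snw1 and Kdm5a, and of L3mbtl3 and Rbpj, changed between libraries, and these neighbours cannot be ordered. The libraries of all other neighbours in the order did not overlap.

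The order depended on the length used. With the length of the principal transcript in place of all exons, a choice made after seeing the data, Spen had 43.7, Snw1 37.5, Ep300 36.4, Maml2 21.5, Maml1 17.4, Kdm5a 15.8, Maml3 11.1, Rbpj 5.28 and L3mbtl3 5.08 CPM per kilobase. Snw1 moved most, because its principal transcript measures 2232 bases against 6586 exonic bases in all. Rbpj and L3mbtl3 remained the lowest members on either scale and overlapped each other on both.

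**Figure D3:**
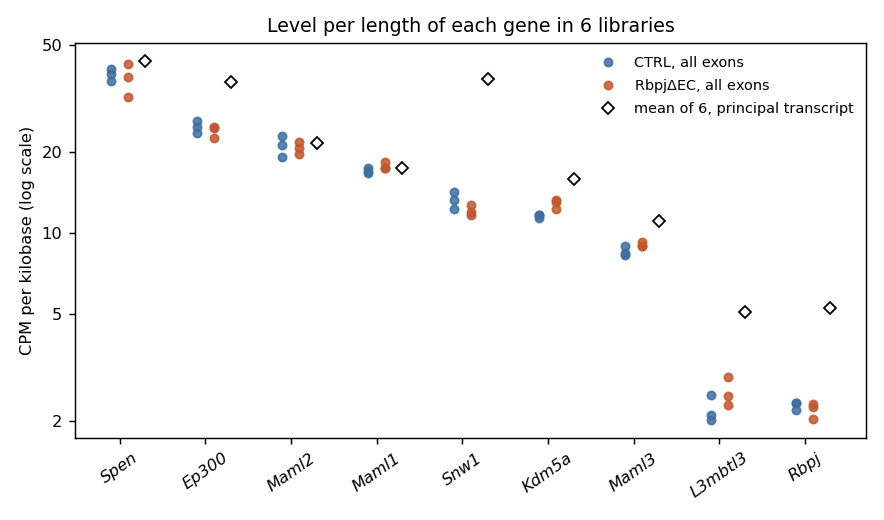
Level per kilobase (log axis) of each member in the 3 CTRL and 3 RbpjΔEC libraries when divided by all exonic bases (points), and the mean of the 6 libraries when divided by the principal transcript (diamonds). Rbpj and L3mbtl3 lie lowest on both scales, and Snw1 moves from 12.7 to 37.5.

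The ratio of a cofactor's counts to those of Rbpj in the same library does not depend on how libraries are scaled. For Kdm5a, these ratios were 5.72, 5.54 and 5.55 in CTRL and 6.04, 7.23 and 6.26 in RbpjΔEC. Every RbpjΔEC library was above every CTRL library, and RbpjΔEC 2, in which Rbpj itself was lowest, stood highest. For Maml3, they were 3.09, 2.96 and 3.16 in CTRL and 3.24, 3.73 and 3.16 in RbpjΔEC. Here the groups were apart only beyond the digits given for CTRL 3 and RbpjΔEC 3. Both differences reached the p of 0.1 that is the least a two-sided exact permutation test can give here. For L3mbtl3, the ratios of 0.862, 0.690 and 0.660 in CTRL and 0.835, 1.09 and 0.754 in RbpjΔEC overlapped. In all, 2 of the 8 ratios were without overlap, against 19.5% of the ratios to Rbpj of all other tested genes, and they share the Rbpj counts in the denominator.

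RBPJ binds the core motif TGGGAA. Where members or targets of RBPJ carry this motif near their starts was read from the RefSeq promoter windows of GRCm38.p6, each from 250 bases before to 50 bases after a gene's start. On either strand, 8397 of 32851 windows (25.6%) held it. Of the members, 7 had a window, with 10 windows in all, and 5 of these windows, from 4 genes, held a match. Of the 16 genes on the target list described further on, 11 had a window, and 2 of their 12 windows (those of Hey2 and Hes5) held it. A match in these letters is a description of the sequence and not a binding site. The 30 bases around each match of the members are shown with the motif, or its reverse complement TTCCCA, in capitals. They show where these letters lie in windows of Rbpj and of 3 cofactors.
Rbpj chr5:53590185-53590214 (+ strand): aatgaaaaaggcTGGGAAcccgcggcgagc
Rbpj chr5:53590269-53590298 (+ strand): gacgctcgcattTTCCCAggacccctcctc
Maml2 chr9:13662303-13662332 (+ strand): acactcttgcacTTCCCAgggctcgggcag
Maml3 chr3:52105174-52105203 (- strand): gcaggtcggggcTTCCCAgcctggggagca
Spen chr4:141538588-141538617 (- strand): cgcgcgcgccggTGGGAAgcgtccggcagc

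The RefSeq table gives 2 starts for Rbpj, both inside the gene span given above. The first match begins 149 bases before one of them, and the other match lies in the windows of both, 65 and 205 bases before them. Maml2 has 2 windows as well. The one at the start of its annotated span (chr9:13297708-13298007) held no match, and the match shown lies in the one inside the span (chr9:13662210-13662509). Levels of the 4 genes with a match did not differ between the genotypes past the threshold, as given for each above.

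Rbpj acts with more nuclear proteins than these 8. Of 17 other coactivators and turnover factors of the Notch complex, among them the acetyltransferase gene Crebbp, the Mediator kinase genes and Fbxw7, 16 were tested. In edgeR's test, 0 of the 16 passed an adjusted p of 0.05, while an unadjusted p under 0.05 was reached by 2 upwards and 1 downwards, against 8.88% and 8.62% of all tested genes. Their median log2 fold change was 0.02. Cdk8, a kinase of the Mediator module that phosphorylates the Notch intracellular domain, was at 32.2, 29.6 and 28.2 CPM in CTRL and 41.5, 35.6 and 39.1 CPM in RbpjΔEC. Its groups did not overlap (log2 fold change 0.37, adjusted p = 0.0740 in edgeR's test, 0.0784 to 0.279 with 1 library left out, and 0.0205 in DESeq2's). Its paralog Cdk19 had a log2 fold change of the opposite sign, -0.20 (adjusted p = 0.174 in edgeR's test), and the deubiquitinase gene Usp7 one of 0.20 (adjusted p = 0.179 in edgeR's test).

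Of 28 other corepressors of RBPJ and their partners, such as the NCoR, CtBP, histone deacetylase and TLE genes, 26 were tested. Again 0 passed an adjusted p of 0.05 in edgeR's test, an unadjusted p under 0.05 was reached by 1 upwards and 2 downwards (17.5% of all tested genes in either direction), and the median log2 fold change was -0.01. Those with the smallest p were Rbbp8 (log2 fold change 0.20, adjusted p = 0.182 in edgeR's test), which encodes the CtBP partner CtIP, Fhl1 (-0.37, adjusted p = 0.194), whose isoform KyoT2 competes for RBPJ, and Runx1t1 (-0.45, adjusted p = 0.221), which encodes the corepressor ETO. The groups did not overlap for 4 of the 16 coactivators and 7 of the 26 corepressors, against 23.0% of all tested genes.

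The Notch receptors, which deliver the partner of RBPJ, were all 4 tested, and all 4 log2 fold changes were below 0 with 0 past an adjusted p of 0.05 in edgeR's test. Notch1 (-0.14, adjusted p = 0.335 in edgeR's test), Notch2 (-0.18, adjusted p = 0.317) and Notch4 (-0.09, adjusted p = 0.583) had small differences. Notch3, which mural cells express and which is also on the mural marker list, was at 13.7, 9.76 and 7.13 CPM in CTRL and at 4.17, 3.84 and 5.66 CPM in RbpjΔEC, a log2 fold change of -1.16 (adjusted p = 0.0522 in edgeR's test). DESeq2 gave it an adjusted p of 0.000183. With 1 library left out, edgeR's adjusted p ran from 0.0190 (without RbpjΔEC 3) to 0.215 (without RbpjΔEC 1), and it was 0.146 without CTRL 1, with a log2 fold change of -0.89. The groups did not overlap for Notch1, Notch2 and Notch3, each lower in RbpjΔEC, against 11.6% of all tested genes that were lower without overlap. They did not overlap for the summed mural markers either, although most of that sum was Mcam, which overlapped (log2 fold change -0.19). The median log2 fold change of the 9 tested mural markers, Notch3 among them, was -1.08. The part of mural cells in the Notch3 level was not tested.

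The genes that RBPJ reads were tested in the same fit. Of 16 listed target genes 15 were tested, Hes5 being too low. In edgeR's test 2 of the 15 passed an adjusted p of 0.05, 1 upwards and 1 downwards, against 0.575% and 0.559% of all tested genes. Nrarp, a target that feeds back on the Notch complex, was at 32.2, 33.4 and 36.5 CPM in CTRL and 48.6, 42.2 and 51.1 CPM in RbpjΔEC. Every RbpjΔEC library was higher (log2 fold change 0.47, standard error 0.0922, adjusted p = 0.0377 in edgeR's test). Jag1, a Notch ligand gene that is itself a target, was at 116.5, 143.3 and 133.0 CPM in CTRL and 80.0, 89.2 and 101.5 CPM in RbpjΔEC, and every RbpjΔEC library was lower (log2 fold change -0.54, adjusted p = 0.0368 in edgeR's test). Without 1 library in turn, Nrarp no longer passed without CTRL 1 (adjusted p = 0.144 in edgeR's test), CTRL 3 (0.0929) or RbpjΔEC 1 (0.165), and Jag1 not without CTRL 3 (0.147), RbpjΔEC 1 (0.150) or RbpjΔEC 2 (0.116).

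In edgeR's test, an unadjusted p under 0.05 was reached by 2 of the 15 targets upwards and 6 downwards, against 8.88% and 8.62% of all tested genes. The groups did not overlap for 8 of the 15, against 23.0% of all tested genes. Their median log2 fold change was -0.17. Hey1, a direct target in ECs, was at 16.7, 19.9 and 22.6 CPM in CTRL and 11.5, 8.92 and 14.6 CPM in RbpjΔEC. Its groups did not overlap, with a log2 fold change of -0.76 (adjusted p = 0.0722 in edgeR's test, 0.0105 to 0.249 with 1 library left out, and 0.00158 in DESeq2's). Gja4, an arterial connexin gene, had a log2 fold change of -0.68 (adjusted p = 0.0622 in edgeR's test, 0.0192 to 0.180 with 1 library left out, and 0.000634 in DESeq2's). Hes1 was at 96.8, 118.0 and 139.3 CPM in CTRL and at 133.9, 117.0 and 130.3 CPM in RbpjΔEC, the RbpjΔEC libraries again inside the CTRL range (log2 fold change 0.11, adjusted p = 0.691 in edgeR's test). A difference between the target list and the members was not tested.

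Over the 6 libraries, 3 genes followed the pattern of Rbpj most closely among 10441 tested genes with a mean of at least 5 CPM. The measure was the root mean square difference of log2 CPM after each gene was centred, which had a median of 0.144 over these genes. It was 0.0194 for Rabgap1, 0.0212 for Pafah1b1 and 0.0244 for Vps13b.

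**Figure D4:**
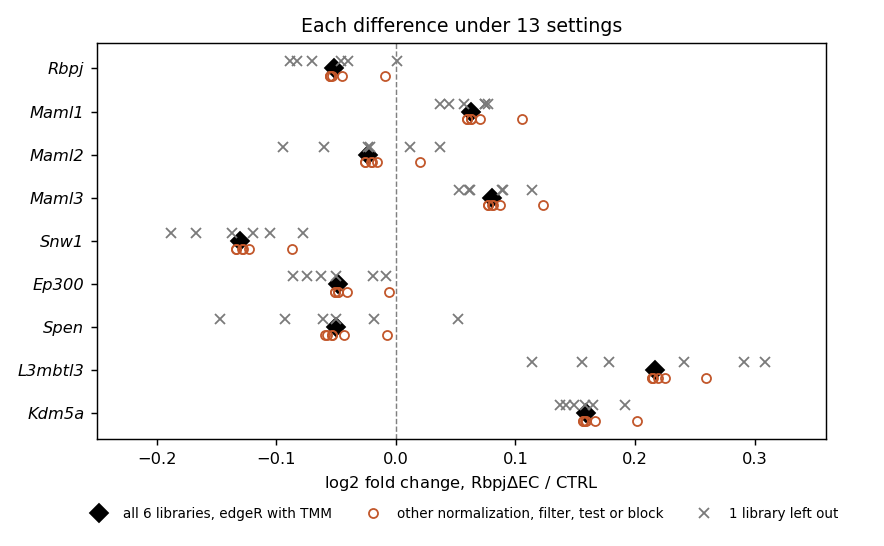
Log2 fold change of each member (horizontal axis) with all 6 libraries in edgeR (diamonds), under another normalization, filter, test or the replicate block (circles), and with 1 library left out (crosses). Rbpj, Maml2 and Spen cross 0 under at least 1 setting, and the other members keep their sign in all of them.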

How the data were processed

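RNA from sorted kidney ECs of 3 CTRL and 3 RbpjΔEC mice was analysed. Per the labels and the study's methods, the authors ran nf-core/rnaseq 1.4.2 with Trim Galore 0.6.4, STAR 2.6.1d and featureCounts (Subread 1.6.4) on GRCm38.p6 with GENCODE M25, in 1 common sequencing run of paired 38-base reads. They deposited unnormalized whole-number counts per gene. The strand and multi-mapping settings of the counting are not given in the sources used here.

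From these counts, edgeR 4.0.16 in R 4.3.3 (filterByExpr, TMM, glmQLFit with robust estimation, glmQLFTest) was fitted over 18438 genes, with Benjamini-Hochberg adjustment and a threshold of 0.05. Standard errors and 95% intervals came from the fold change and its F. CPM used TMM-scaled library sizes, and centred log2 CPM a prior count of 2. The fit was tested on simulated data. Depth (39649171 to 47726850 counts) put 3 counts at 0.0634 to 0.0749 CPM. No 2 libraries of a group were identical. Coordinates and lengths came from GENCODE M21 on GRCm38, where all 9 members matched by identifier, and promoter windows from RefSeq.

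The members and all gene lists were chosen with earlier results of these data known, so no list is independent evidence. Named were the members, the receptors, Rbpj relatives and overlapping genes, the 3 smallest p in each other list with any gene past the threshold, Hey1, Hes1 and Nrarp, and the 3 genes most like Rbpj. Alternatives were other normalizations, no filter, DESeq2 1.42.0, limma-voom (limma 3.58.1), the replicate number as a block, and each library left out.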

Additional observations from a re-analysis of the deposited data

How the results depend on the processing

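Each member's difference was recomputed under 12 alternatives, 108 values in all. In 103 the direction was kept and in 5 it turned, and none passed an adjusted p of 0.05, the smallest being 0.134 (Kdm5a, edgeR with library size alone). The sign turned for Maml2 with library size alone (log2 fold change 0.020) and with 1 library left out (-0.094 to 0.037), for Rbpj (-0.089 to 0.0013, without RbpjΔEC 2) and for Spen (-0.15 to 0.052, without RbpjΔEC 1), and for the target Hes1 (-0.022, without CTRL 1, to 0.24). Kdm5a was under an unadjusted p of 0.05 in edgeR, DESeq2 or limma in 7 of its 12 alternatives, L3mbtl3 in 4 and Snw1 in 1. The median log2 fold change over all genes was 0.01, 0.05 with library size alone, a shift that Maml2 shared (-0.03 relative to that median under both scalings), and -0.09 without the filter, where 38324 genes were tested. The cause of the other changes was not tested.

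Counts of calls moved more. Over all genes 209 became 1436 without the filter, 944 with DESeq2, and with 1 library left out 21 (RbpjΔEC 1), 24 (CTRL 3), 48 (RbpjΔEC 2), 54 (CTRL 1), 521 (RbpjΔEC 3) or 700 (CTRL 2). Of the targets, 2 called became 5 without the filter, 6 with DESeq2 and 0 to 4 with 1 library left out. Hey1 also passed in edgeR without the filter, with the block (adjusted p = 0.0190) and without RbpjΔEC 3 (0.0105), and Gja4 without the filter, with the block (0.0431) and without CTRL 2 (0.0192). Receptors called went from 0 to 1 without the filter and with DESeq2, and ranged from 0 to 1 with 1 library left out (1 without RbpjΔEC 3). Other coactivators called went from 0 to 1 (Cdk8) without the filter and with DESeq2.

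The replicate numbers showed no pairing of the libraries over all genes: same-numbered deviations correlated at 0.0231, 0.00916 and 0.00544, and not every library correlated best with its own number. A pairing that touches few genes would not show in these correlations. With the replicate block, 344 genes were called in all, 5 of the targets and 0 of the members.

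The lowest count of any member in a library was 831. With 3 mice a group, the members' 95% intervals reached 0.14 to 0.25 to either side on the log2 scale, which limits the differences that could be detected, and the exact test could not go below 0.1.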

Other observations

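The long Maml2 and Maml3 introns hold genes of uncertain type annotated on the same strand. In Maml3, which spans 419.2 kb, 11 such genes were listed and 10 were tested. Their summed level was 38.6, 27.5 and 26.3 CPM in CTRL 1 to 3 and 37.8, 28.2 and 38.6 CPM in RbpjΔEC 1 to 3. In Maml2, which spans 411.4 kb, 3 were listed and tested, with sums of 36.2, 27.0 and 29.3 CPM in CTRL and 35.04, 25.6 and 44.9 CPM in RbpjΔEC. The summed levels overlapped between the groups at both. In edgeR's test, 0 of the 13 tested genes passed an adjusted or an unadjusted p of 0.05, against 1.13% and 17.5% of all tested genes. The libraries ranked differently on these intronic genes than on the exons of Maml2 and Maml3. At Maml2, RbpjΔEC 3 was highest on the intronic genes and CTRL 3 on the exons. The rest of the introns was not measured.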
